A study of Mus musculus with 8 samples.

Results

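The genes described here were Atf4, Atf5, Ddit3, Trib3, Chac1, Asns, Phgdh, Psat1, Psph and Shmt2, a set of 10 genes of the 24346 in the table, chosen by name as genes of the ATF4 stress response and of serine synthesis. They were followed in immature oligodendrocytes (iOLs) with and without Med23, a subunit of the Mediator complex that carries signals from transcription factors to RNA polymerase II. Oligodendrocyte precursor cells (OPCs) were immunopanned from brains of mice at postnatal day 7, grown under 10% CO2 in medium with PDGF-AA at 10 ng/ml and NT-3 at 1 ng/ml, and then differentiated for 1 day in 15 nM triiodothyronine (T3) with 10 ng/ml ciliary neurotrophic factor. The 4 Med23-/- libraries were from Med23 fl/fl;Olig1-Cre cells, in which Cre is driven in the oligodendrocyte lineage, and the 4 Med23+/+ libraries were from Med23 fl/fl cells without Cre. Both groups therefore carried the floxed alleles, and the loss of Med23 and the presence of Cre cannot be told apart. The labels do not say whether replicates were separate animals or cultures, so p-values measure the spread between these libraries, which may be partly technical.

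ATF4 is a basic leucine zipper transcription factor whose mRNA is translated better when the initiation factor eIF2 is phosphorylated by one of its kinases, which sense unfolded protein in the endoplasmic reticulum (ER), amino acid shortage, double-stranded RNA or heme lack. It pairs with C/EBP family members on C/EBP-ATF elements and turns on genes for amino acid synthesis, amino acid import, tRNA charging and, under lasting stress, cell death. Because ATF4 is set largely by translation, its mRNA level does not give its protein level, which was not measured here. The serine pathway runs from 3-phosphoglycerate through Phgdh, Psat1 and Psph to serine, and Shmt2 then splits serine into glycine and a folate-bound carbon unit in mitochondria. In oligodendrocytes, which make large amounts of membrane lipid and protein, the eIF2 and ATF4 pathway is best known from myelin disorders.

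Promoter windows were read from RefSeq on GRCm38.p6 for all 10 genes, each covering 250 bases before to 50 bases after the annotated start. The 8-letter core of the C/EBP-ATF element, TGATGNAA, was searched on both strands, where the other strand reads TTNCATCA. It was found in 3 of the 10 genes, Asns, Chac1 and Trib3, against 4.51% of all 27025 genes with a window (1219 of them). The 3 windows are shown because they hold the element, and the levels of these genes are described below. Each is written 5′ to 3′ along the gene's strand, with the element in capitals.
Asns, chr6:7693160-7693459, minus strand: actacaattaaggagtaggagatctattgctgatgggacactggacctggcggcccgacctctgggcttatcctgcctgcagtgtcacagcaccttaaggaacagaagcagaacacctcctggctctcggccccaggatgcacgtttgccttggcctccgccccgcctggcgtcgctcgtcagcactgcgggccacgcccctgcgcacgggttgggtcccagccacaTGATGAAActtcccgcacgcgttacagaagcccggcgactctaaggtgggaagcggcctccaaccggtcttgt
Chac1, chr2:119350992-119351291, plus strand: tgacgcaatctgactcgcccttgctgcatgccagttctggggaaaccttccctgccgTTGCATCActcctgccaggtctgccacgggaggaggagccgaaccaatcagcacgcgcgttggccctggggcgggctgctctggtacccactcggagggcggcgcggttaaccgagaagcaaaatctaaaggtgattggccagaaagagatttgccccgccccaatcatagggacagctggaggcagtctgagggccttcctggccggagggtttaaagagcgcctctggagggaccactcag
Trib3, chr2:152344011-152344310, minus strand: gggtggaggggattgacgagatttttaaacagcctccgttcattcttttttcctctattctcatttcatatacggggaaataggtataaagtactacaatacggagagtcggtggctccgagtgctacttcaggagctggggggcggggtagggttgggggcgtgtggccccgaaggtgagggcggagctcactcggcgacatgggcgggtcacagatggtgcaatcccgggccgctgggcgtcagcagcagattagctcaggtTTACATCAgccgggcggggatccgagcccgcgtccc
The element began 23 bases before the start in Asns and 193 bases before it in Chac1, and 15 bases past it in Trib3. A match is a match of letters only, and a window without one says nothing about binding elsewhere.

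Expression was deposited as FPKM, mapped fragments scaled by transcript length and by library size, a scale per length on which genes can be compared. The files hold no read counts, so the depth of the libraries is unknown. Between 15941 and 16469 genes were above 0 in each library. The worth of 1 read was estimated from genes under 0.1 FPKM both in a library and in Med23+/+ replicate 1. Their most common ratio, taken as 1 read against 1 read, ran from 0.747 to 1. No library was a copy of another: the correlation across genes ran from 0.897 to 0.967 over the pairs, and 15 to 49 of the 12328 genes tested below had exactly equal values in a pair. Med23 itself (chromosome 10, 24869986 to 24913681, mm10) stood at 12.5 FPKM ± 0.225 (SD, n = 4) in Med23+/+ iOLs and at 8.26 FPKM ± 0.247 (SD, n = 4) in Med23-/- iOLs (log2 fold change -0.55, limma adjusted p = 0.000353). It was reduced in every Med23-/- library but still detected.

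Cell type markers were read in the same libraries, since they moved with genotype. All 10 oligodendrocyte lineage markers were tested, and their summed level was 2588 to 2882 FPKM in Med23+/+ and 1926 to 2494 FPKM in Med23-/- libraries, with 6 lower and 2 higher. Pdgfra, the receptor that marks OPCs, averaged 121 and 334 FPKM in Med23+/+ and Med23-/- libraries. Of 8 neuron markers 7 were higher, their sum running from 47.6 to 76.3 FPKM and from 96.9 to 198 FPKM. The 8 astrocyte markers summed to 128 to 183 FPKM and to 94.2 to 147 FPKM, with Fgfr3, Gfap and Aqp4 lower and Slc1a2 higher. Sums did not exceed 1.89 FPKM for the 8 microglia markers or 3.31 FPKM for the 8 endothelial and pericyte markers, and 7 of each list were under 1 FPKM in every library. The part of these shifts in the results below was not tested, and in bulk RNA fewer cells of a type and less RNA per cell cannot be told apart.

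A gene was tested where its mean was at least 1 FPKM over the 8 libraries, and passed at an adjusted p under 0.05 in limma on log2(FPKM + 1), with Benjamini-Hochberg adjustment over the 12328 tested genes. Of the 10 genes 9 were tested, and Trib3 was too low. Of the 9 tested genes 1, Asns, was lower in Med23-/- iOLs, none was higher and 8 did not pass. Among all tested genes 14.1% were lower and 15.9% were higher, 30.0% in either direction, so the set held calls no more often than the table. At an unadjusted p under 0.05, Atf4 and Asns were lower and none was higher, while 20.3% of tested genes were lower and 21.1% higher by that rule. None of the 9 passed the test with a change of more than 2-fold on the log2(FPKM + 1) scale, which 1.75% of tested genes did as lower and 2.98% as higher. The median log2 fold change of the 9 genes was -0.04, beside -0.01 over all tested genes.

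Asns encodes asparagine synthetase, which makes asparagine from aspartate and glutamine and is a standard ATF4 target (chromosome 6, 7675169 to 7693254, mm10). Its levels were 42.5, 45.9, 41.8 and 40.1 FPKM in Med23+/+ iOLs and 28.5, 32.1, 37.1 and 32.0 FPKM in Med23-/- iOLs, given here and for each gene from replicate 1 to replicate 4. The highest Med23-/- library lay below the lowest Med23+/+ library, so the groups did not overlap. Among tested genes 15.3% were lower without overlap. The means were 42.6 FPKM ± 2.48 (SD, n = 4) and 32.4 FPKM ± 3.52 (SD, n = 4), a ratio of 0.762. Asns fell by 0.39 on the log2 scale (standard error 0.09, 95% confidence interval -0.59 to -0.19, limma adjusted p = 0.00985). It passed in all 17 alternative fits, 8 of which left out 1 library each, with log2 fold changes between -0.45 and -0.30. The 2-fold limit is not among these fits, and Asns did not reach it. The difference was -0.53 between the libraries of replicates 1 and 2 and -0.24 between those of replicates 3 and 4. Of all tested genes 73.5% differed less than Asns did.

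Atf4, the transcription factor of the set (chromosome 15, 80255184 to 80257541, mm10), stood at 69.2, 66.3, 63.9 and 62.3 FPKM in Med23+/+ iOLs and at 57.3, 58.4, 58.3 and 59.1 FPKM in Med23-/- iOLs. All 4 Med23-/- libraries were below all Med23+/+ libraries, as was so for 15.3% of tested genes. The Med23-/- values were close together, with an SD of 1.27% of their mean against 4.58% in Med23+/+. The means of 65.4 FPKM ± 2.999 (SD, n = 4) and 58.3 FPKM ± 0.742 (SD, n = 4) had a ratio of 0.891. The log2 fold change was -0.16 (standard error 0.06, 95% confidence interval -0.31 to -0.02), and the test was not passed (limma adjusted p = 0.0859). No alternative brought it past the threshold (adjusted p 0.0544 to 0.561 over 17). Under quantile normalization the log2 fold change was -0.06. Over the 8 libraries the levels most like those of Atf4 were those of Dph2 (Pearson r = 0.982), Yars (0.979), Eef1d (0.978), Ppm1g (0.978) and Ldha (0.974). These are descriptions over libraries that also share the genotype difference.

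The other transcription factors did not pass. Atf5, a relative of Atf4 whose translation also follows eIF2 (chromosome 7, 44812256 to 44816658, mm10), had 22.9, 16.1, 12.9 and 13.0 FPKM in Med23+/+ and 18.8, 15.3, 12.4 and 16.7 FPKM in Med23-/- libraries. The ranges overlapped almost wholly, and the log2 fold change was -0.01 (95% confidence interval -0.42 to 0.39, limma adjusted p = 0.966). Ddit3, which encodes CHOP, the factor tied to cell death under lasting stress (chromosome 10, 127290774 to 127296288, mm10), had 7.84, 5.48, 10.1 and 5.73 FPKM in Med23+/+ and 7.66, 9.15, 6.82 and 7.65 FPKM in Med23-/- libraries. Both the highest and the lowest library were Med23+/+. Its log2 fold change was 0.12 (95% confidence interval -0.26 to 0.50, limma adjusted p = 0.637), and it ran from 0.013 to 0.27 when 1 library was left out. The difference was 0.31 between the libraries of replicates 1 and 2 and -0.07 between those of replicates 3 and 4. Exons of Atf5 overlap Nup62 and Il4i1 on the opposite strand, and those of Ddit3 overlap Mars and Gm4189. Nup62 averaged 21.8 FPKM in Med23+/+ and 24.8 FPKM in Med23-/- libraries, Mars 26.4 and 25.9 FPKM, and Il4i1 0.969 and 1.02 FPKM. Nup62 and Mars did not pass (limma adjusted p = 0.452 and 0.827). Without a statement that counting used strand, reads of such partners cannot be told apart.

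Trib3 and Chac1 are targets that ATF4 and CHOP switch on under stress. Trib3, a pseudokinase that feeds back on ATF4 and CHOP (chromosome 2, 152337422 to 152344032, mm10), had 0.248, 0.110, 0.0944 and 0.0804 FPKM in Med23+/+ and 0.834, 0.149, 0.335 and 0.331 FPKM in Med23-/- libraries. It was low throughout, and 3 of the 4 Med23-/- libraries were above every Med23+/+ library. The means were 0.133 FPKM ± 0.0774 (SD, n = 4) and 0.412 FPKM ± 0.294 (SD, n = 4). In a fit with no filter on low values the log2 fold change was 0.30 (standard error 0.13), which did not pass after adjustment (limma adjusted p = 0.145). Chac1, which breaks down glutathione (chromosome 2, 119351229 to 119354381, mm10), had 1.19, 1.14, 1.44 and 1.52 FPKM in Med23+/+ and 1.28, 1.32, 1.91 and 1.46 FPKM in Med23-/- libraries. Its groups overlapped, and the log2 fold change was 0.10 (95% confidence interval -0.19 to 0.38, limma adjusted p = 0.602). Of the 3 genes that hold the element, Asns was thus lower, Chac1 did not pass and Trib3 was too low to be tested.

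**Figure D1:**
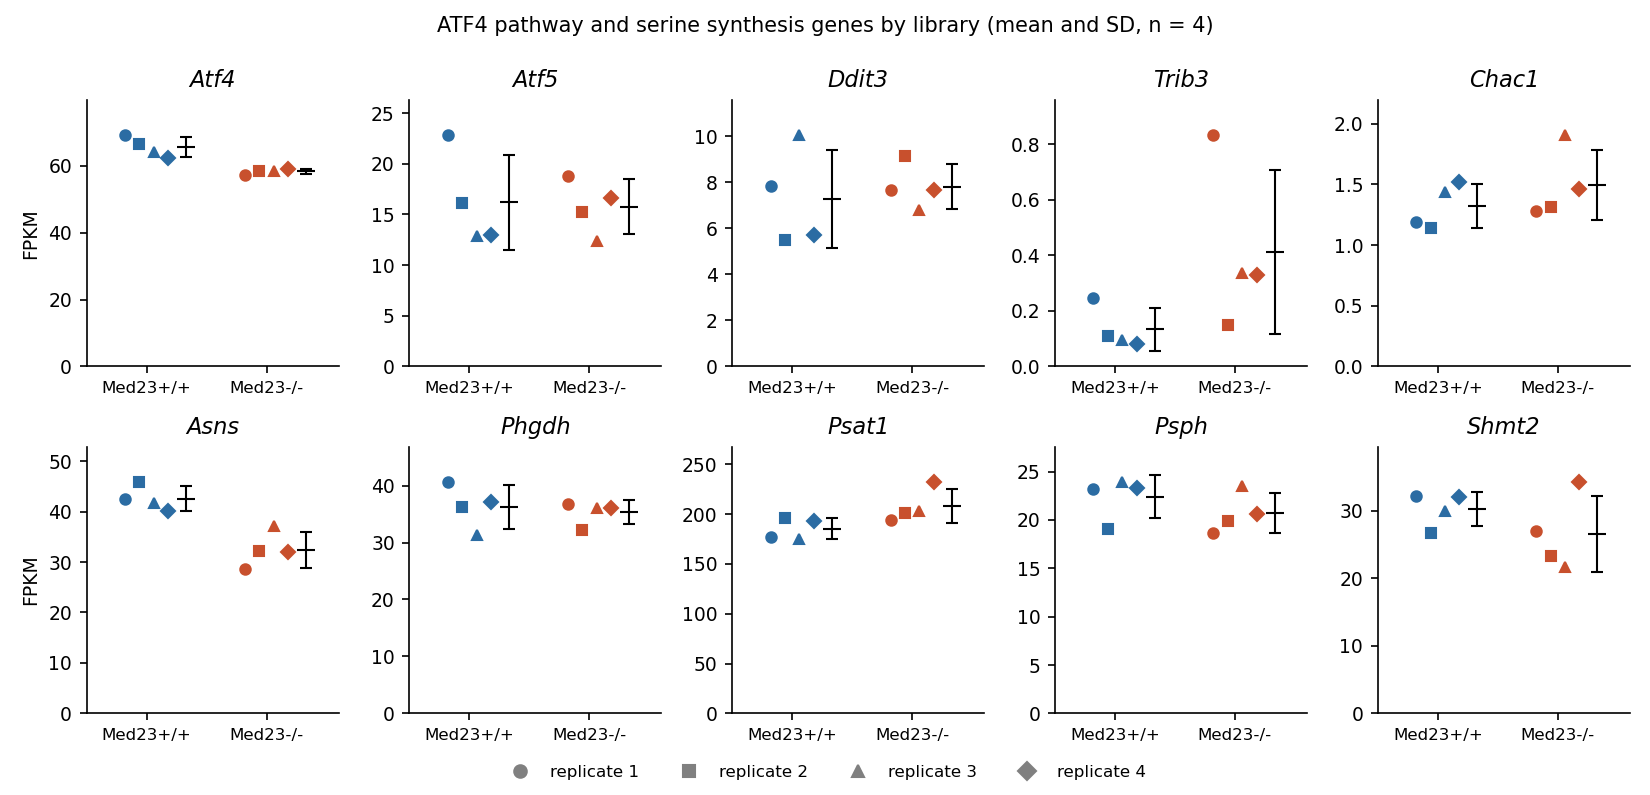
Level of each of the 10 genes in every library in FPKM, on a linear axis from 0, with Med23+/+ on the left and Med23-/- on the right of each panel. Points are libraries, marked by replicate number, and bars are the mean and SD over 4 libraries. The groups do not overlap for Atf4 and Asns, while the other 8 genes overlap. Of all tested genes, 15.3% were lower and 16.3% higher without overlap.

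The serine synthesis genes were well expressed in both genotypes, and no change passed the test. Phgdh, the dehydrogenase of the first step (chromosome 3, 98313170 to 98339990, mm10), had 40.7, 36.2, 31.3 and 37.1 FPKM in Med23+/+ and 36.8, 32.2, 36.0 and 36.1 FPKM in Med23-/- libraries. The Med23-/- values lay inside the Med23+/+ range, with a log2 fold change of -0.04 (95% confidence interval -0.24 to 0.17, limma adjusted p = 0.797). Over the 8 libraries the levels most like those of Phgdh were those of Ddx39 (Pearson r = 0.983), Sv2c (0.896), Setd4 (0.894), Isoc2b (0.890) and Myadm (0.888). These are the highest values over all tested genes in only 8 libraries, and are descriptions. Sv2c, Setd4, Isoc2b and Myadm were low, at group means of 1.19 to 2.06 FPKM.

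Psat1, the aminotransferase of the next step (chromosome 19, 15904678 to 15947337, mm10), was the highest of the set, at 177, 196, 175 and 193 FPKM in Med23+/+ and 194, 202, 203 and 233 FPKM in Med23-/- libraries. Here 3 of the 4 Med23-/- libraries were above every Med23+/+ library. The means were 185 FPKM ± 10.8 (SD, n = 4) and 208 FPKM ± 17.0 (SD, n = 4), and the log2 fold change of 0.16 did not pass (95% confidence interval -0.03 to 0.35, limma adjusted p = 0.181). The ratio of Asns to Psat1 within a library was 0.240, 0.234, 0.238 and 0.207 in Med23+/+ and 0.147, 0.159, 0.183 and 0.137 in Med23-/- libraries, with no overlap. Asns and Psat1 had the lowest and the highest log2 fold change of the tested set, and the Asns levels already did not overlap. The ratio is therefore no separate support. The ratio of Psat1 to Phgdh was 4.34 to 5.60 in Med23+/+ and 5.27 to 6.44 in Med23-/- libraries, with overlap.

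Psph, the phosphatase that releases serine (chromosome 5, 129765558 to 129787449, mm10), had 23.2, 19.1, 24.0 and 23.3 FPKM in Med23+/+ and 18.6, 19.9, 23.5 and 20.7 FPKM in Med23-/- libraries. The groups overlapped (log2 fold change -0.11, 95% confidence interval -0.33 to 0.11, limma adjusted p = 0.439). A transcript of Cct6a, a chaperonin gene, overlaps Psph on the opposite strand. Cct6a was more abundant, at 165 and 132 FPKM in Med23+/+ and Med23-/- libraries, and was lower in Med23-/- (log2 fold change -0.32, limma adjusted p = 0.0240). Shmt2 (chromosome 10, 127517123 to 127522444, mm10) had 32.2, 26.7, 29.9 and 31.9 FPKM in Med23+/+ and 27.0, 23.3, 21.6 and 34.3 FPKM in Med23-/- libraries. Med23-/- replicate 4 held the highest value of all and replicate 3 the lowest. The log2 fold change was -0.20 (95% confidence interval -0.50 to 0.10, limma adjusted p = 0.306), and without Med23-/- replicate 4 it was -0.32 and passed (limma adjusted p = 0.0437). Ndufa4l2 overlaps Shmt2 on the opposite strand and averaged 0.0811 FPKM in Med23+/+ and 0.274 FPKM in Med23-/- libraries.

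**Figure D2:**
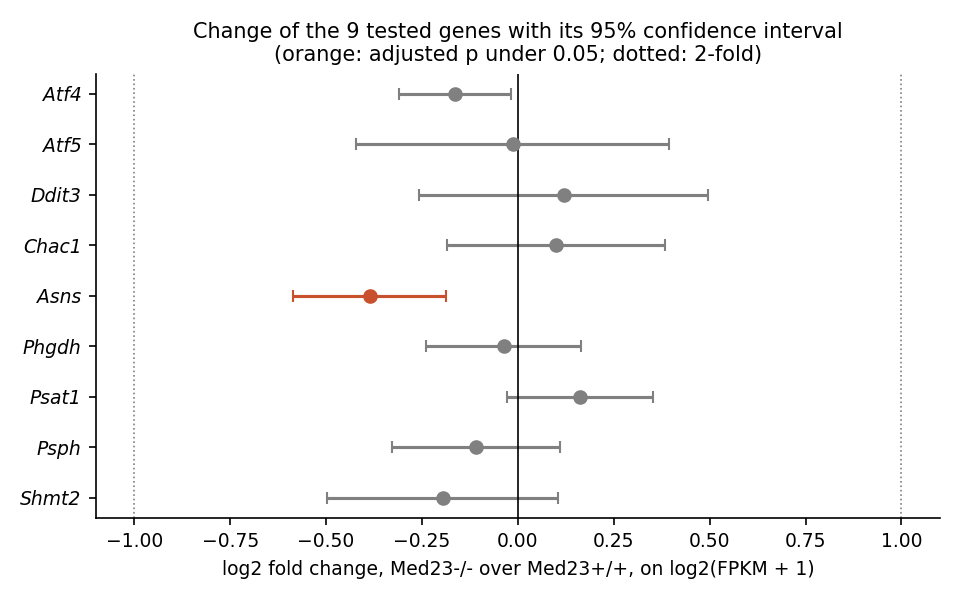
Log2 fold change of the 9 tested genes, Med23-/- over Med23+/+, on the log2(FPKM + 1) scale, with 95% confidence intervals from limma. Only the Asns point is orange, for an adjusted p under 0.05, and no interval reaches the dotted lines at 2-fold.

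In the Med23+/+ libraries the order of mean levels, in FPKM, was Psat1, Atf4, Asns, Phgdh, Shmt2, Psph, Atf5, Ddit3, Chac1 and Trib3. The neighbours Asns and Phgdh, Phgdh and Shmt2, and Psph and Atf5 overlapped between libraries. In the Med23-/- libraries Phgdh stood above Asns, and the overlapping neighbours were Phgdh and Asns, Asns and Shmt2, Shmt2 and Psph, and Psph and Atf5. Psat1 was above 97.1% of tested genes and Atf4 above 90.7% by the Med23+/+ mean, while Ddit3 was above 33.8% and Chac1 above 4.99%. Ddit3, Chac1 and Trib3 were the lowest of the set in both genotypes.

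The steps before ATF4 were read from 16 genes of eIF2 and its regulators, all tested. Of these 6 were lower, none was higher and 10 did not pass, with a median log2 fold change of -0.12. Among all tested genes 14.1% were lower and 15.9% higher. The 4 eIF2 kinases did not pass. Eif2ak3, which encodes PERK, the kinase that senses ER stress, averaged 16.8 FPKM ± 1.14 (SD, n = 4) in Med23+/+ and 15.5 FPKM ± 0.556 (SD, n = 4) in Med23-/- libraries (log2 fold change -0.12, limma adjusted p = 0.274). The log2 fold changes were 0.05 for Eif2ak1, which senses heme lack, -0.09 for Eif2ak2, which senses double-stranded RNA, and -0.09 for Eif2ak4, which senses amino acid shortage (limma adjusted p = 0.683, 0.703 and 0.548).

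Of the 6 that fell, 4 passed in every alternative in which they were tested, and Eif2s2 and Eif2b1 did not. Ppp1r15a was too low to be tested with the filter at 5 FPKM. Eif2s1, the subunit that the kinases phosphorylate, had 27.4, 32.4, 30.5 and 28.0 FPKM in Med23+/+ and 18.2, 22.1, 24.7 and 23.5 FPKM in Med23-/- libraries. The highest Med23-/- value was under the lowest Med23+/+ value (log2 fold change -0.41, limma adjusted p = 0.0149). Eif2b3, a subunit of the exchange factor that reloads eIF2, fell by 0.43 on the log2 scale (limma adjusted p = 0.0109). Ppp1r15a, or GADD34, the stress-induced phosphatase subunit that reverses eIF2 phosphorylation and is itself an ATF4 target, averaged 4.84 FPKM ± 0.164 (SD, n = 4) and 3.48 FPKM ± 0.506 (SD, n = 4) and fell by 0.39 on the log2 scale (limma adjusted p = 0.0179). Impact, a regulator of Eif2ak4, was also lower.

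Of 20 other ATF4 targets and partner factors 15 were tested. Beside 14.1% lower and 15.9% higher among all tested genes, 3 of the 15 were lower, 4 higher and 8 did not pass. Their median log2 fold change was 0.00 and took the other sign, -0.01, under quantile normalization. Ddit4, an mTORC1 inhibitor induced by stress, averaged 77.2 FPKM ± 5.72 (SD, n = 4) and 52.8 FPKM ± 12.6 (SD, n = 4) and fell by 0.57 on the log2 scale (limma adjusted p = 0.0190), but did not pass under quantile normalization (adjusted p = 0.0601). Pycr1, an enzyme of proline synthesis, fell from 2.13 FPKM ± 0.126 to 1.19 FPKM ± 0.167 (SD, n = 4 each; limma adjusted p = 0.00651). Bcat1, a transaminase of branched-chain amino acids, was lower, while Jdp2 and Aldh1l2 were higher. Of the 7 calls 3, those of Pycr1, Bcat1 and Gpt2, were kept in every alternative in which they were tested. Pycr1 was too low to be tested with the filter at 5 FPKM. Jdp2 did not pass with no filter (adjusted p = 0.0766), and Aldh1l2 did not pass without Med23+/+ replicate 1, 2 or 4 or without Med23-/- replicate 2. Of the 5 genes under the filter, Nupr1, a stress-induced chromatin protein named here after its values were seen, passed in the fit with no filter (limma adjusted p = 0.000383). It had 0.144 FPKM in Med23+/+ replicate 1, was listed at 0 in the other Med23+/+ libraries, and had 0.527 to 0.802 FPKM in Med23-/- libraries.

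Gpt2, the mitochondrial alanine transaminase, moved the other way and was past 2-fold. It had 51.4, 53.9, 50.8 and 57.4 FPKM in Med23+/+ and 108, 119, 109 and 112 FPKM in Med23-/- libraries. The groups were far apart, and Gpt2 rose by 1.05 on the log2 scale (limma adjusted p = 2.14e-05). Gdf15, a secreted stress hormone, averaged 0.242 FPKM ± 0.181 (SD, n = 4) in Med23+/+ and had 4.24, 0.798, 1.14 and 1.18 FPKM in Med23-/- libraries. Its log2 fold change was 1.06 (limma adjusted p = 0.0259). It reached the filter only through Med23-/- replicate 1, without which its mean was under 1 FPKM and it was not tested. It also did not pass without Med23+/+ replicate 1, 2 or 3 (highest adjusted p = 0.0664). The count of 7 calls in this list became 4 without Med23+/+ replicate 1 or 2, and 4 with a filter at 5 FPKM.

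**Figure D3:**
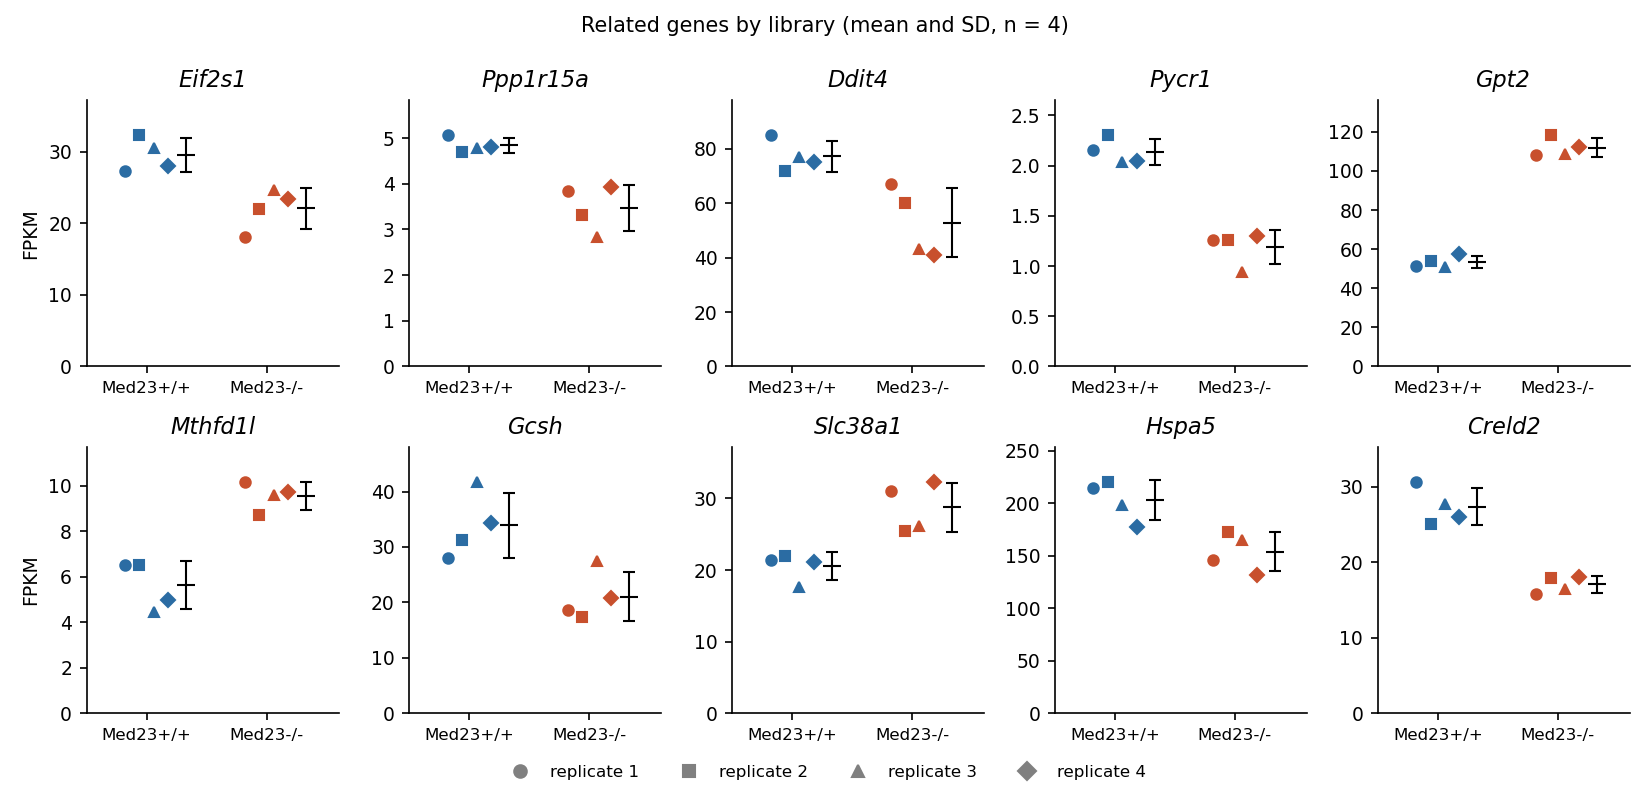
Levels in FPKM of 10 related genes in every library, on linear axes from 0, with points marked by replicate number and bars for the mean and SD over 4 libraries. The panels were chosen among genes that passed the test, and the groups do not overlap in any of them. Without overlap, 15.3% of tested genes were lower and 16.3% higher. Gpt2, Mthfd1l and Slc38a1 are higher in Med23-/- libraries and the other 7 genes are lower.

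Of 10 tested amino acid transporters 2 were lower, 2 higher and 6 did not pass, beside 14.1% lower and 15.9% higher among all tested genes. The median log2 fold change was 0.10, and 0.01 under quantile normalization. Slc38a1, a neutral amino acid carrier that takes up glutamine, rose from 20.5 FPKM ± 1.94 to 28.7 FPKM ± 3.46 (SD, n = 4 each), by 0.46 on the log2 scale (limma adjusted p = 0.00848). Slc1a4, which carries serine and alanine, rose by 0.33 on the log2 scale (limma adjusted p = 0.00923). Slc1a5, a glutamine and serine carrier, fell by 0.49 on the log2 scale (limma adjusted p = 0.0146). Slc7a1, a carrier of arginine and lysine, fell by 0.39 on the log2 scale (limma adjusted p = 0.0346), a call that was lost when any 1 library other than Med23-/- replicate 4 was left out (highest adjusted p = 0.0838) and with no filter (adjusted p = 0.0559). Slc7a11, the cystine carrier, was below the filter at means of 0.358 and 0.664 FPKM, and its groups overlapped.

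Cytosolic aminoacyl-tRNA synthetases load amino acids onto tRNAs. Of 20, 6 were lower, 1 was higher and 13 did not pass, beside 14.1% lower and 15.9% higher among all tested genes. Their median log2 fold change was -0.18, and -0.08 under quantile normalization. Dars, for aspartate, fell from 45.5 FPKM ± 4.34 to 33.0 FPKM ± 2.69 (SD, n = 4 each; limma adjusted p = 0.00545), and Farsa, a subunit for phenylalanine, from 40.3 FPKM ± 1.57 to 30.6 FPKM ± 1.68 (SD, n = 4 each; limma adjusted p = 0.00285). Qars, Eprs, Iars and Yars were lower as well, but of the 7 calls in the list only those of Dars and Farsa were kept in every alternative. Rars, for arginine, was higher by 0.28 on the log2 scale (limma adjusted p = 0.0288), a call lost in 6 of the 8 fits without 1 library, the exceptions being those without Med23+/+ replicate 2 or Med23-/- replicate 2 (highest adjusted p = 0.0744). The 7 calls became 4 under quantile normalization and also without Med23+/+ replicate 4 or Med23-/- replicate 1, and 3 without Med23+/+ replicate 3.

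The 20 genes around Shmt2, of folate, serine, methionine and glycine metabolism, were all tested. Beside 14.1% lower and 15.9% higher among all tested genes, 3 of the 20 were lower, 3 higher and 14 did not pass. Their median log2 fold change was -0.03, and -0.08 under quantile normalization. Gcsh and Amt, subunits of the mitochondrial glycine cleavage system, fell by 0.67 and by 0.61 on the log2 scale (limma adjusted p = 0.0100 and 0.00499). Gcsh averaged 33.9 FPKM ± 5.89 (SD, n = 4) in Med23+/+ and 21.1 FPKM ± 4.46 (SD, n = 4) in Med23-/- libraries. Mthfd1l, the mitochondrial enzyme that releases formate, had 6.50, 6.52, 4.47 and 4.998 FPKM in Med23+/+ and 10.2, 8.72, 9.60 and 9.74 FPKM in Med23-/- libraries. It rose in every Med23-/- library, by 0.68 on the log2 scale (limma adjusted p = 0.00231). Mthfd2, the mitochondrial dehydrogenase between Shmt2 and Mthfd1l and an ATF4 target, averaged 13.8 FPKM ± 1.24 (SD, n = 4) and 10.5 FPKM ± 3.49 (SD, n = 4) and did not pass (log2 fold change -0.41, limma adjusted p = 0.116). As for Shmt2, its Med23-/- replicate 4 was high, at 15.5 FPKM. Cbs, which joins serine to homocysteine, was higher by 0.54 on the log2 scale (limma adjusted p = 0.0349), a call lost in 6 of the 8 fits without 1 library, all but those without Med23+/+ replicate 1 or Med23-/- replicate 2 (highest adjusted p = 0.0891), and with no filter or quantile normalization (highest adjusted p = 0.0953). Mat2a was lower and Mtr higher.

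The other arms of the ER stress response, which run through IRE1 and ATF6 and drive chaperone genes, were read from 21 genes. Of these 20 were tested, with 13 lower, none higher and 7 not passed, beside 14.1% lower among all tested genes, and the median log2 fold change was -0.33. Creld2, an ER protein induced by stress, had 30.7, 25.1, 27.7 and 26.0 FPKM in Med23+/+ and 15.8, 18.0, 16.5 and 18.1 FPKM in Med23-/- libraries, and fell by 0.65 on the log2 scale (limma adjusted p = 0.000516). Sdf2l1, a chaperone partner, fell by 0.63 on the log2 scale (limma adjusted p = 0.000574). Hspa5, or BiP, the main ER chaperone, averaged 203 FPKM ± 19.3 (SD, n = 4) and 154 FPKM ± 18.3 (SD, n = 4). It fell by 0.40 on the log2 scale (limma adjusted p = 0.0204), but did not pass without Med23+/+ replicate 1, Med23+/+ replicate 2 or Med23-/- replicate 1 (highest adjusted p = 0.0543) or under quantile normalization (adjusted p = 0.0966). The lower genes also included Hyou1, Calr, Dnajc3 and Pdia4. The 7 that did not pass included Ern1, Atf6 and Xbp1, with log2 fold changes of 0.04, -0.01 and -0.16. The others of the 7 were Pdia6 (-0.18), Dnajb9 (0.30), Edem1 (0.10) and Sel1l (0.06). Of the 13, 6 passed in every alternative, and Dnajb11, Manf, Syvn1, Canx, Pdia3 and Hsp90b1, like Hspa5, did not. The 13 calls became 8 under quantile normalization, where the median was -0.21, and 8 without Med23-/- replicate 1.

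**Figure D4:**
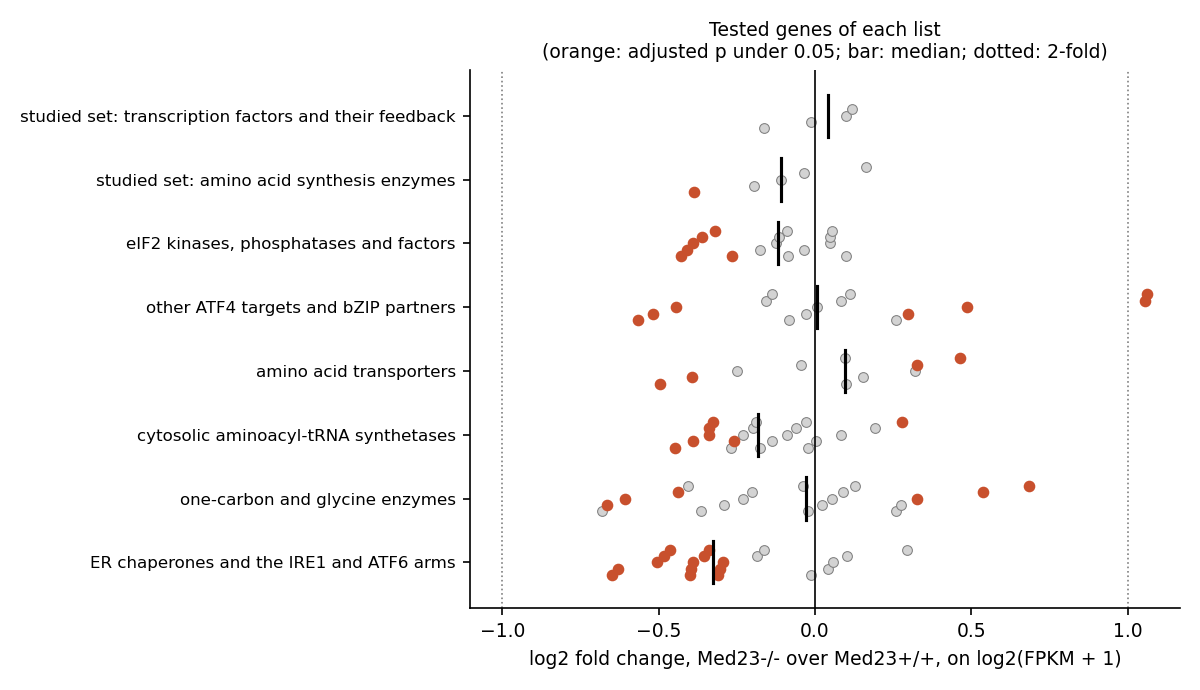
Log2 fold change, Med23-/- over Med23+/+, on the log2(FPKM + 1) scale, of each tested gene of the set, split into 2 groups, and of 6 related lists. Orange points had a limma adjusted p under 0.05 and bars are medians, which run from -0.33 for the ER chaperones to 0.10 for the amino acid transporters. The orange points at the right are Gpt2 and Gdf15.

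The C/EBP-ATF core was also looked up in the windows of the related genes. It was held by 7 of 16 other ATF4 targets with a window, 5 of 12 aminoacyl-tRNA synthetases, 2 of 8 amino acid transporters and 1 of 12 eIF2 genes. None of 18 folate and glycine genes or 18 ER chaperones held it. It was also held by 2 of 5 neuron markers, and by 4.51% of all genes and 223 of 9295 tested genes with a window. Of the 13 tested genes of the set and its 6 related lists that held it, 4 were lower in Med23-/- iOLs, 2 were higher and 7 did not pass. The lower genes were Asns, Pycr1 (not tested with the filter at 5 FPKM) and, not in every alternative, Iars and Yars. The higher genes were Slc1a4 and, not in every alternative, Jdp2. Of the 73 tested genes of these lists with a window and no match, 25 were lower, 5 higher and 43 did not pass. The shares among all tested genes were 14.1% lower and 15.9% higher. Genes with the element thus went in both directions, as did those without it, among which most calls were lower.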

How the data were processed

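RNA of 8 iOL samples, 4 Med23+/+ and 4 Med23-/-, was sequenced on the Illumina X-10 platform. The authors trimmed reads with Cutadapt, aligned them with TopHat2 to mm10 and computed the deposited FPKM per gene with Cuffdiff, with bias and multi-read correction. Versions and the annotation were not given in the sources used here. The table's columns of fold changes, p-values and calls made by the authors were not used, and 0 library columns were left out.

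All 24346 genes were read, and those with a mean of at least 1 FPKM were fitted with limma 3.58.1 (R 4.3.3), moderated with a mean-variance trend, on log2(FPKM + 1). This scale understates changes of low genes. The script was tested on simulated data. Groups came from the sample titles. The members and lists were chosen with earlier results of these data known. Named were all 10 members, Med23, the genes with the largest changes in each direction that passed in each list (up to 2 per direction, or all of up to 5), Eif2ak1, Eif2ak2, Eif2ak3, Eif2ak4, Eif2s1, Ppp1r15a, Mthfd2, Slc7a11 and Hspa5, and the 5 genes most like Atf4 and Phgdh. Other genes are named to complete a count. Gene coordinates and overlapping genes were read from the GENCODE annotation. Alternative fits changed the pseudocount, filters, scalings, variance trend or library weights, or added a replicate block. Others had a covariate for replicates 1 and 2 against 3 and 4, or left out 1 library each. The 2-fold limit was applied only to the counts of the set, and a call kept in every alternative refers to the fits.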

Additional observations from a re-analysis of the deposited data

Results flagged for a closer look

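In a group of 4 libraries, a library counted as apart where its gap to the nearest other library as a share of the group's range exceeded Dixon's 95% critical value. Over 22 groups 2 met this, and chance gives about 1 in 20. Phgdh was lowest in Med23-/- replicate 2, at 32.2 FPKM, while the other Med23-/- libraries had 36.0 to 36.8 FPKM (gap 0.834 of the range). Psph was lowest in Med23+/+ replicate 2, at 19.1 FPKM, while the other Med23+/+ libraries had 23.2 to 24.0 FPKM (gap 0.848 of the range).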

How the results depend on the processing

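The count of 1 lower gene of the 10 became 0 with a fold change above 2 and ran from 1 to 2 when libraries were left out, reaching 2, with Shmt2 added, without Med23-/- replicate 4. Near-zero changes took the other sign for Atf5 under library weights (0.088), for Chac1 under quantile normalization (-0.052) and for Phgdh under quantile normalization (0.051). Without 1 library each, the log2 fold change ran from -0.10 to 0.16 for Atf5 and from -0.10 to 0.019 for Phgdh. The deviations of same-numbered libraries from their group means had correlations of 0.130, -0.0960, -0.0260 and 0.159. For libraries with other numbers they ran from -0.179 to 0.16. With so few libraries these values do not settle whether the numbers pair them. With the replicate as a block 1 gene of the set was lower and 0 were higher, and Asns had a limma adjusted p of 0.0167. The depth of the libraries is unknown, and Trib3 was under the filter on low values.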
